A study of Mus musculus with 40 samples.

Results

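Cidea and 5 other genes known for brown fat, namely Ucp1, Elovl3, Dio2, Ppargc1a and Prdm16, were followed through rib repair in immature and mature mice. The 6 genes were taken by symbol from the 21203 genes tested, and all 6 were in the filtered table. They were chosen by one reading of these same data, the higher Cidea in immature than in mature mice at 2 days post resection (dpr), so that the age difference of the 6 at 2dpr is described here and not tested. Bulk RNAseq covered 10 groups, at baseline and at 0, 2, 5 and 14dpr, of wild type mice that were 7 weeks old (immature) or over 10 months old (mature). The mice were female, and a 3 mm piece of rib was resected in the groups at 0 to 14dpr. Baseline pieces were labelled as bone, bone marrow and intercostal muscle and pieces at 0 to 14dpr as bone callus, so that stage and the kind of piece taken cannot be told apart. The labels say that baseline tissue was taken after the resection, whereas the study's text uses baseline for the state before surgery, and which of these holds for the baseline libraries is not settled here. Each group held 4 libraries, apart from mature mice at 5dpr with 3, since 1 labelled sample of the 40 was not analysed here. Levels are CPM, counts divided by the library total as scaled by TMM factors, and total counts ranged from 6075274 to 21546794 per library.

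Brown fat burns lipid to make heat. Noradrenaline raises cyclic AMP in brown adipocytes through beta-adrenergic receptors, and this signal induces Ucp1, Dio2 and Ppargc1a. Several of the genes also act elsewhere: Ppargc1a drives mitochondrial biogenesis in muscle, Dio2 is expressed in muscle and bone cells, Prdm16 acts in blood stem cells, and Cidea and Elovl3 are expressed in sebaceous glands.

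The sequence upstream of the start is shown for the 3 genes classically induced by cyclic AMP, as the region in which such a response element can lie. Each line holds the 250 bases before the RefSeq start (GRCm38.p6), 5′ to 3′ on the gene's strand. Capitals mark TGACG or its reverse complement CGTCA, the core of the cyclic AMP response element, and the full palindrome TGACGTCA where it occurs.
Ucp1, chr8:83290098-83290347, plus strand: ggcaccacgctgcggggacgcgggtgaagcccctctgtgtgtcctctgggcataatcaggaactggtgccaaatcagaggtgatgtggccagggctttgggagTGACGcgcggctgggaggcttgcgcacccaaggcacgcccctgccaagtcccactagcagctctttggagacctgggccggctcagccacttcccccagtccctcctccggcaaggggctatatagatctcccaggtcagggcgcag
Dio2, chr12:90739039-90739288, minus strand: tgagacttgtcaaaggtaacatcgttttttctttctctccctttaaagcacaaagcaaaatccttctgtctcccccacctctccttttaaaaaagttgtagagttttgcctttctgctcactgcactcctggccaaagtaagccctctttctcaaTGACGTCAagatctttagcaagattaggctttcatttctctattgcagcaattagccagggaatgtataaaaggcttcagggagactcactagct
Ppargc1a, chr5:51567726-51567975, minus strand: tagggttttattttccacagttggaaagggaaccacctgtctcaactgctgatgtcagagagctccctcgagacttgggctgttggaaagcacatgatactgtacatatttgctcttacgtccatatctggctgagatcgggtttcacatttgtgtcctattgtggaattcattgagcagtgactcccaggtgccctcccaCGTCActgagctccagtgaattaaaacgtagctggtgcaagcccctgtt
The core began 147 bases before the start in Ucp1, 95 in Dio2 and 49 in Ppargc1a, and of these 3 windows only that of Dio2 held the full palindrome. The windows cover 1 RefSeq start per gene, and any other start of these genes was not scanned. The RefSeq start differs from the outer gene end given below for Dio2, and by only a few bases for Ucp1 and Ppargc1a. Over the same 250 bases, 17.8% of 32851 RefSeq promoters held the core on either strand and 1.55% held the palindrome. The Prdm16 window, chr4:154636874-154637123, held neither, and no window of Cidea or Elovl3 was scanned. A match of letters is a description and does not show binding, and no part of this element in the levels was tested.

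Cidea, which encodes a lipid droplet protein that channels lipid between droplets and is abundant in brown fat, spanned from 0 to 199 CPM over the 39 libraries. At 0dpr its level was 42.9, 1.85, 65.6 and 22.0 CPM in immature replicates 1 to 4 and 199, 11.7, 47.8 and 4.17 CPM in mature replicates 1 to 4. These 2 groups overlapped, and within each of them the highest library was 35.5 and 47.8 times the lowest. At baseline Cidea ranged from 2.11 to 4.74 CPM in immature and from 1.58 to 7.04 CPM in mature mice. At 14dpr it ranged from 0.434 to 0.710 CPM in immature and from 0.241 to 1.67 CPM in mature mice. Ordered by mean log2 CPM, the groups ran from mature 0dpr (4.73 ± 2.40, SD, n = 4) through immature 0dpr (4.24 ± 2.24) and immature 2dpr (3.15 ± 1.92) down to mature 2dpr (-1.29 ± 1.25), and no neighbouring pair in that order was farther apart than the larger of its SDs.

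Ucp1, the proton channel that makes brown fat mitochondria produce heat, varied still more. It stood at 851 CPM in mature 0dpr replicate 1 and at 248 CPM in immature 0dpr replicate 1, but had 0 reads in immature 0dpr replicate 2. The other immature 0dpr libraries held 128 and 33.7 CPM and the other mature ones 30.3, 105 and 6.95 CPM. Both ages thus held high and low libraries on the day of resection. More than 10 CPM of Ucp1 was present in 11 of 39 libraries, of which 6 were at 0dpr, 2 were immature 2dpr, 1 was immature 5dpr, 1 was mature 5dpr and 1 was mature baseline. In the order of group means of Ucp1, only immature baseline and mature 2dpr were neighbours farther apart than the larger SD.

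Elovl3, which elongates saturated and monounsaturated fatty acids in brown fat and skin, was near the limit of detection in most libraries. It reached 38.3 CPM (244 reads) in mature 0dpr replicate 1, the same library in which Cidea and Ucp1 were highest. No other library exceeded 10 CPM. In immature mice the 4 baseline libraries held 1, 1, 0 and 0 reads and the 4 at 14dpr held 0, 1, 0 and 0, so that no fold change against these groups is given for either age comparison.

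**Figure D1:**
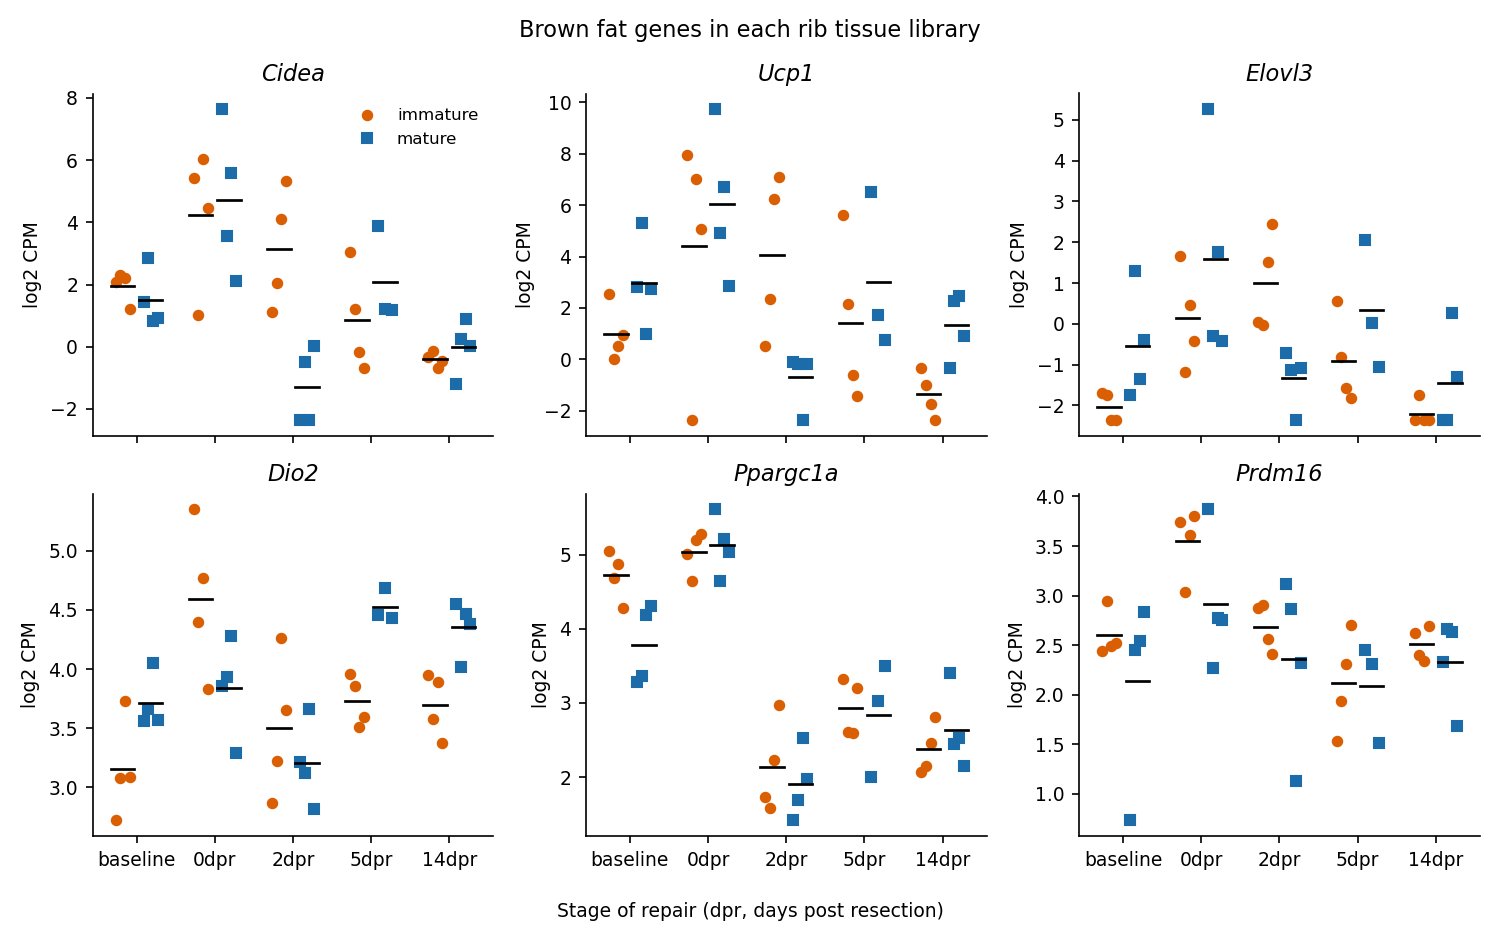
Each panel plots one gene as log2 CPM (prior count 2) by stage, with 1 circle per immature and 1 square per mature library and a bar at the group mean, n = 4 except mature 5dpr with n = 3. Cidea, Ucp1 and Elovl3 spread over many log2 units within groups and are highest in mature 0dpr replicate 1, while Dio2, Ppargc1a and Prdm16 keep to narrower bands.

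The other 3 genes were steadier. Within groups the SD of log2 CPM was 2.59 for Ucp1, 1.52 for Cidea and 1.32 for Elovl3, against a median of 0.375 over 18245 genes with a mean of at least 1 CPM in a group. It was 0.391 for Dio2, which activates thyroid hormone, 0.477 for Ppargc1a and 0.561 for Prdm16, a transcriptional regulator of brown fat identity. Dio2 ranged from 6.40 to 40.6 CPM, and its highest libraries were immature 0dpr replicates 1 and 3 with 40.6 and 27.1 CPM. Prdm16 ranged from 1.47 to 14.4 CPM, with mature 0dpr replicate 1 highest. Ppargc1a, the coactivator of mitochondrial biogenesis, ranged from 2.48 to 48.6 CPM, and all of its libraries above 20 CPM were at baseline or 0dpr.

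Cidea, Ucp1 and Elovl3 varied together from library to library. Of all genes with a mean of at least 1 CPM in a group, Ucp1 was the one most like Cidea, with a Pearson r of log2 CPM of 0.91 and a Spearman rho of 0.87 over 39 libraries. Elovl3 correlated with Cidea with r = 0.80 (rho = 0.72) and with Ucp1 with r = 0.86 (rho = 0.80). Deviations from the group means, which remove what the groups share, gave 0.92 for Cidea with Ucp1, 0.83 for Cidea with Elovl3 and 0.80 for Ucp1 with Elovl3. Without the 8 libraries at 2dpr, on which Cidea was selected, these were 0.94, 0.85 and 0.78 (n = 31), and 0.92, 0.83 and 0.81 without the 2 libraries farthest from the median. The same library was highest for all 3 genes in 6 of 10 groups. Where both genes had at least 10 reads, in 26 libraries, Ucp1 CPM was between 0.282 and 6.33 times Cidea CPM while Ucp1 itself spanned from 0.466 to 851 CPM. Points of one group share age, stage and dissection, and no test was made.

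**Figure D2:**
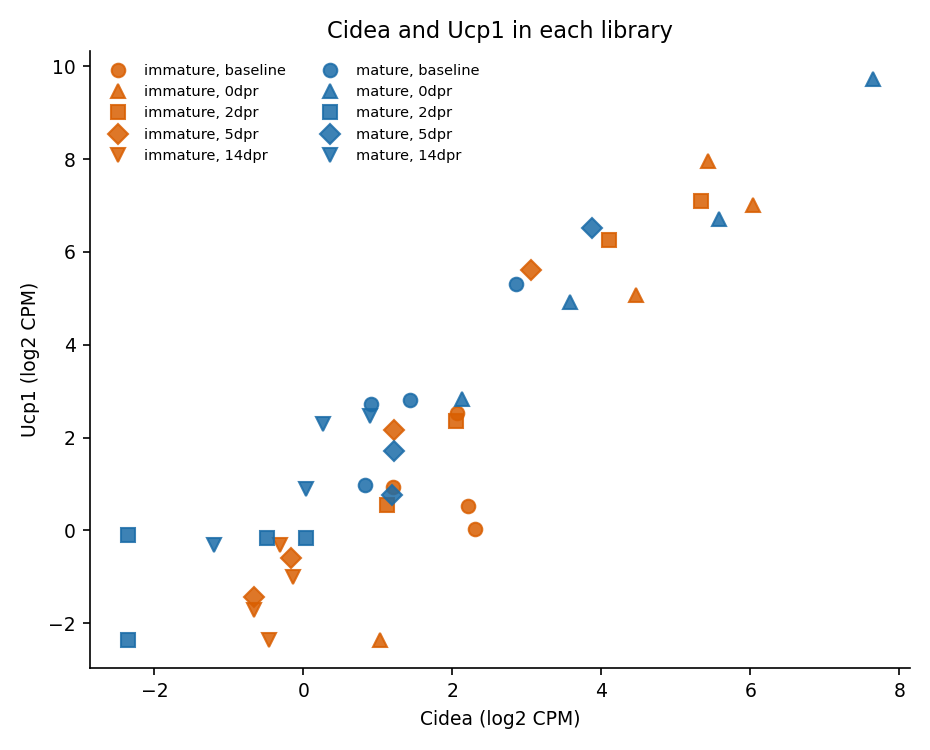
Each point is 1 library, with log2 CPM of Cidea on the x axis and of Ucp1 on the y axis, colour for age and symbol for stage. Most libraries lie along a single band (r = 0.91 over all 39), with mature 0dpr replicate 1 at its upper end and immature 2dpr libraries spread along it. Mature 2dpr and immature 14dpr libraries lie toward its lower end. Immature 0dpr replicate 2, with 0 reads of Ucp1, lies below the band.

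The other 3 genes were less closely tied to these. Taken as deviations from group means, Cidea correlated with Dio2 with r = 0.32, with Prdm16 with r = 0.17 and with Ppargc1a with r = 0.16. Over the 9 pairs of Cidea, Ucp1 or Elovl3 with one of the other 3, r lay between 0.07 for Ucp1 with Ppargc1a and 0.41 for Elovl3 with Prdm16, with 0.33 for Ucp1 with Dio2. Prdm16 and Ppargc1a were both highest in the same library as Cidea, Ucp1 and Elovl3. The 5 genes that were no members and were most like Cidea over all libraries were Otop1 (r = 0.87, rho = 0.82), Gpd1 (0.86, 0.83), Agpat2 (0.83, 0.81), Lpl (0.83, 0.75) and Gys2 (0.82, 0.80). Otop1 encodes a proton channel found in brown fat, Gpd1 and Agpat2 act in glycerolipid synthesis, Lpl frees fatty acids from lipoproteins, and Gys2 makes glycogen. For Ucp1 they were Slc27a2 (0.87, 0.85), Otop1 (0.82, 0.80), 9130214F15Rik (0.79, 0.73), Letmd1 (0.77, 0.76) and Kcnk3 (0.76, 0.70). For Elovl3 they were Letmd1 (0.81, 0.69), Kcnk3 (0.76, 0.64), Slc27a2 (0.75, 0.72), 4931406C07Rik (0.74, 0.53) and Trim67 (0.72, 0.72). Letmd1 encodes a mitochondrial protein, Kcnk3 a potassium channel and Slc27a2 a fatty acid transporter.

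Ppargc1a varied with muscle genes. The genes most like it were Ckmt2, Pde4d, Perm1, Coq10a and Pfkm, with r from 0.95 to 0.96 and rho from 0.90 to 0.93, and of these Ckmt2, Perm1 and Pfkm are known from energy metabolism of striated muscle. Its r with the mean of 20 skeletal muscle markers was 0.95, and 0.49 on deviations from group means. With the mean of 12 adipocyte markers its r was 0.81, and 0.06 on deviations. For Cidea the r with the adipocyte mean was 0.74, and 0.48 on deviations, and that with the muscle mean 0.61, and 0.04 on deviations. Dio2 was most like Slc7a2 (r = 0.67), Pcdh12 (0.66), Arl5b (0.65), Sox5 (0.64) and Airn (0.63). Prdm16 was most like Gadd45g (0.77), Nfic (0.71), Srebf1 (0.70), Hr (0.70) and Flt1 (0.70).

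**Figure D3:**
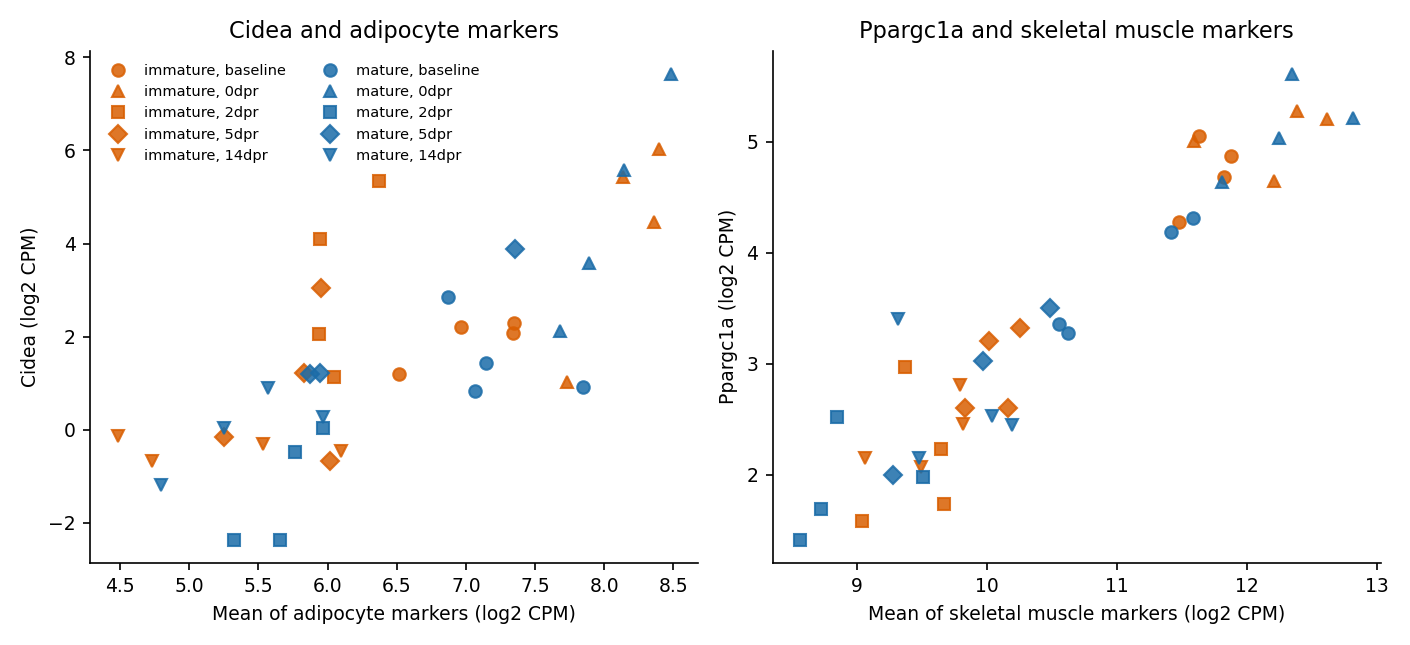
The left panel plots Cidea against the mean log2 CPM of 12 adipocyte markers and the right panel Ppargc1a against that of 20 skeletal muscle markers, with 1 point per library, colour for age and symbol for stage. Points lie closer to a line for Ppargc1a and the muscle level (r = 0.95) than for Cidea and the adipocyte level (r = 0.74).

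At 2dpr, the stage at which it was chosen, Cidea was 1.99, 3.94, 16.9 and 40.4 CPM in immature replicates 1 to 4 (15.8 ± 17.7, SD, n = 4) and 0, 0.520, 0 and 0.833 CPM in mature replicates 1 to 4 (0.338 ± 0.411). Every immature library was above every mature library, and immature replicates 3 and 4 were far above replicates 1 and 2. In the mature libraries this rested on 0, 6, 0 and 18 reads, and 3 reads, the limit that a count of 0 allows, would be 0.248 and 0.333 CPM in replicates 1 and 3, which covers counting error only. The fitted log2 fold change was 5.23 ± 1.20 (SE), and it lay between 4.21 without immature replicate 4 and 6.34 without mature replicate 4.

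The same 2 immature libraries were highest for Ucp1 and Elovl3. Ucp1 was 1.26, 4.95, 76.0 and 136 CPM in the immature and 0.743, 0.693, 0 and 0.694 CPM in the mature libraries, a log2 fold change of 6.53 ± 1.84. Elovl3 was 0.837, 0.788, 2.68 and 5.23 CPM against 0.413, 0.260, 0 and 0.278 CPM, a log2 fold change of 3.19 ± 1.17. Of all 21203 genes, 3.20% had every immature above every mature library at 2dpr, and among the 6 genes Cidea, Ucp1 and Elovl3 did. Since this contrast chose the genes, nothing is read from that count.

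Dio2, Ppargc1a and Prdm16 overlapped between the ages at 2dpr. Their log2 fold changes were 0.39 ± 0.27, 0.30 ± 0.35 and 0.16 ± 0.37, against a median of 0.04 over all genes. Dio2 ranged from 7.12 to 19.0 CPM in immature and from 6.85 to 12.4 CPM in mature mice, and Prdm16 from 5.11 to 7.31 and from 2.00 to 8.51 CPM. Ppargc1a ranged from 2.81 to 7.67 CPM and from 2.48 to 5.55 CPM.

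Other fat genes were measured in the same contrast. The median log2 fold change was 0.33 over 20 brown fat effector genes, 0.31 over 21 brown fat regulators, 0.38 over 6 beige fat markers, -0.01 over 16 lipid droplet genes, 0.40 over 15 fatty acid synthesis and elongation genes, 0.33 over 8 thyroid hormone genes and 0.35 over 12 adipocyte markers. Thrsp (3.12 ± 0.53), a regulator of lipogenesis, and Fasn (2.15 ± 0.51), fatty acid synthase, were picked out by this same contrast. It also chose Cidea, so that nothing is read from their values. Otop1 was 0.105, 0.563, 2.68 and 5.11 CPM in immature replicates 1 to 4 and 0 to 0.743 CPM in mature mice, and so was also highest in replicates 3 and 4. Summed over the 12 adipocyte markers, all of which had reads in every group, the level was 1829 to 2585 CPM in immature and 1553 to 1892 CPM in mature libraries. With the adipocyte mean as a covariate, the fitted values were 4.41 for Cidea, 5.21 for Ucp1 and 2.33 for Elovl3. In bulk tissue, fewer cells of a type and less RNA per cell cannot be told apart.

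Several defining markers of skin and mammary tissue, in which Cidea is also known, had few reads. Of 10 keratinocyte markers Krt5, Krt15, Krt1, Lor, Flg and Dsg3 had at most 5 reads in any library, and of 10 mammary epithelium markers the milk genes Csn2, Csn3, Csn1s1, Wap and Lalba, together with Elf5, had at most 4. The 4 keratinocyte markers in the filtered table summed at 2dpr to 5.11 to 16.3 CPM in immature and 3.98 to 8.44 CPM in mature mice. The summed 10 sebaceous gland markers at 2dpr were 35.8 to 46.2 CPM in immature and 19.4 to 42.4 CPM in mature mice, which overlapped. That list includes Pparg, which is also among the brown fat regulators, and its marker Awat1 had 0 reads in the immature 2dpr libraries. The 4 mammary markers in the filtered table summed to 2.35 to 48.8 CPM and to 4.94 to 48.3 CPM. The part of these tissues in the levels of Cidea was not tested.

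At the stages that did not choose the genes, no age difference was called. By edgeR's quasi-likelihood test with Benjamini-Hochberg adjustment over all genes, 0 of 6 were called at baseline, 0dpr, 5dpr and 14dpr, where 0.585%, 0.726%, 0% and 0.00943% of all genes were called. At an unadjusted p under 0.05 there were 2, 2, 1 and 1 of the 6, against 2482, 2278, 1081 and 968 of all genes. DESeq2 called 0 of the 6 at each stage. Between the ages, log2 CPM of each gene was also compared at each stage by a two-sided exact permutation test, 24 in all, whose smallest possible p is 0.0286 for 4 against 4 and 0.0571 for 4 against 3.

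Cidea did not keep its 2dpr direction elsewhere in any called way. Its log2 fold change of immature over mature was 0.22 ± 1.00 at baseline, -0.98 ± 0.87 at 0dpr, -1.30 ± 1.07 at 5dpr and -0.71 ± 1.47 at 14dpr, with adjusted p of 0.970, 0.754, 1.00 and 1.00 by edgeR's quasi-likelihood test. Without mature 0dpr replicate 1 the value at 0dpr was 0.65, without mature 5dpr replicate 1 the value at 5dpr was 0.23, and without mature baseline replicate 3 the value at baseline was -0.0068. At 5dpr Cidea was 8.09, 2.13, 0.700 and 0.434 CPM in immature and 14.5, 2.13 and 2.08 CPM in mature libraries, again with 1 high library at each age.

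Ucp1 gave values below 0 at each of these stages, none of them called. They were -2.58 ± 1.58 at baseline, -1.27 ± 1.27 at 0dpr, -1.37 ± 1.43 at 5dpr and -3.59 ± 2.64 at 14dpr, with adjusted p = 0.571, 0.784, 1.00 and 1.00. Without mature 0dpr replicate 1 the value at 0dpr turned to 1.12, and without mature 5dpr replicate 1 that at 5dpr turned to 2.38. At 14dpr immature libraries held 5, 3, 1 and 0 reads of Ucp1 and mature ones 5, 42, 48 and 16 reads, and the exact permutation p was 0.0571. Elovl3 was -3.10 ± 1.06 at 0dpr (adjusted p = 0.191), and -0.27 without mature replicate 1.

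Dio2 was the one member whose libraries separated by age at 5 and 14dpr. At 14dpr it was 15.2, 11.8, 14.6 and 10.2 CPM in immature replicates 1 to 4 and 23.3, 16.0, 22.0 and 20.7 CPM in mature ones, with no overlap (log2 fold change -0.66 ± 0.27, adjusted p = 0.979, exact permutation p = 0.0286, unadjusted). At 5dpr it was 11.2 to 15.4 CPM in immature and 21.4 to 25.6 CPM in mature libraries, also with no overlap (log2 fold change -0.81 ± 0.29, adjusted p = 0.668, exact permutation p = 0.0571). Of all genes, 2.72% at 14dpr and 6.18% at 5dpr had every mature above every immature library. At 0dpr the direction was the opposite, with 40.6, 21.0, 27.1 and 14.1 CPM in immature and 14.3, 15.1, 19.3 and 9.59 CPM in mature libraries, which overlapped (0.81 ± 0.27, adjusted p = 0.169). Without immature 0dpr replicate 4 that value was 1.02 and was called. At baseline Dio2 was -0.53 ± 0.27 (adjusted p = 0.452).

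Ppargc1a at baseline was 19.2 to 33.0 CPM in immature and 9.54 to 19.6 CPM in mature mice, which overlapped (0.90 ± 0.31, adjusted p = 0.214 by edgeR). The summed skeletal muscle markers there were 89758 to 116299 CPM in immature and 48862 to 94520 CPM in mature libraries, and with the muscle mean as a covariate the value was 0.58 (adjusted p = 0.762). Prdm16 lay between 0.06 and 0.55 at the 4 stages, with no adjusted p under 0.646.

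The pathway lists gave 1 call between the ages at these 4 stages, Elovl5, a fatty acid elongase, which at 0dpr was higher in immature mice by a log2 fold change of 0.92 ± 0.21 (adjusted p = 0.0246 by edgeR). This call was lost with the compared libraries alone (0.94) and without mature 0dpr replicates 2 (0.90), 3 (0.88) or 4 (0.92), and also without immature 0dpr replicate 1 (0.38). Of the 20 effectors, 21 regulators, 6 beige markers, 16 lipid droplet genes, 8 thyroid hormone genes and 12 adipocyte markers, 0 were called at any of them.

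**Figure D4:**
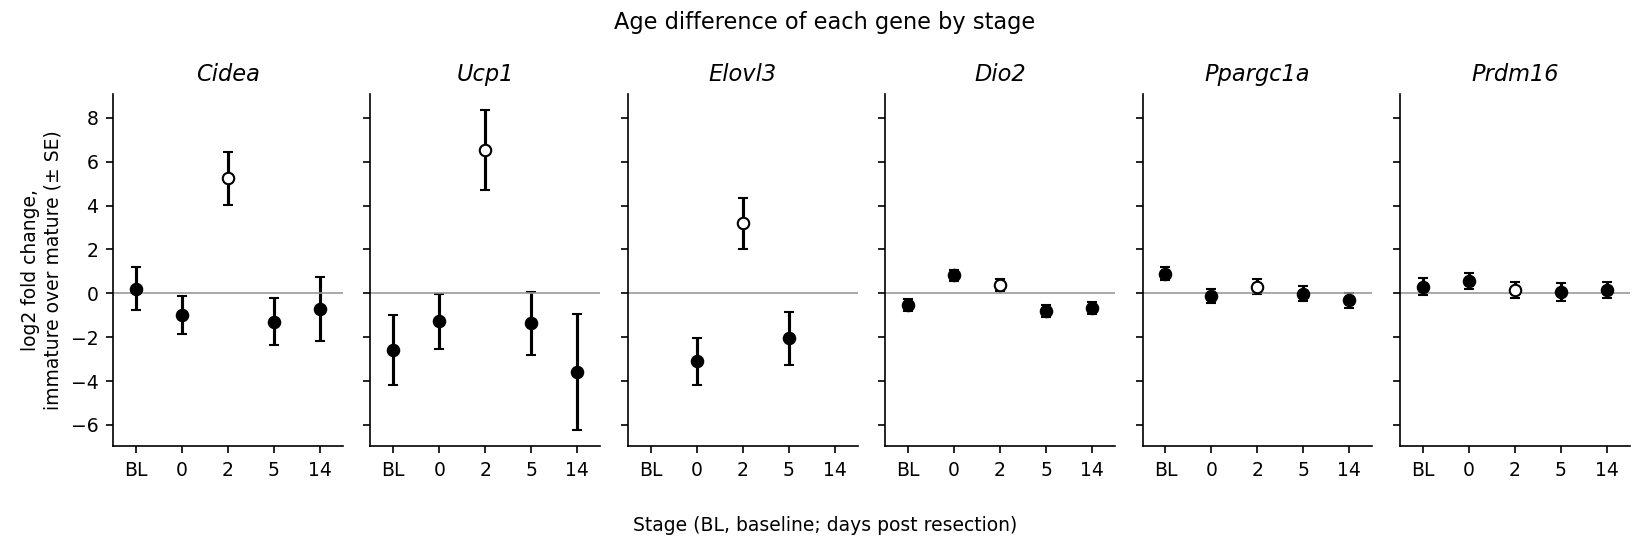
Each point is the log2 fold change of immature over mature mice with its SE, by stage (BL, baseline, then days post resection), for each gene. Open points mark 2dpr, the contrast that chose the genes and was not tested, and no filled point was called. Elovl3 is not drawn at baseline and 14dpr, where no immature library had over 3 reads.

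The change from baseline to 0dpr also did not differ by age in any called way. In the interaction of age with 0dpr against baseline 0 of 6 were called by edgeR's quasi-likelihood test, where 0.0141% of all genes were called. In that with 14dpr against baseline 0 of 6 were called, where 0.0472% of all genes were called. At an unadjusted p under 0.05 by the same test there were 2 and 1 of the 6, against 1712 and 1694 of all genes. DESeq2 called 0 of the 6 in each interaction. The smallest unadjusted p belonged to Dio2 at 0dpr, 1.35 ± 0.39 (adjusted p = 0.424), and to Ppargc1a at 14dpr, -1.21 ± 0.46 (adjusted p = 0.477). For Cidea they were -1.20 ± 1.33 and -0.93 ± 1.77. The interaction at 2dpr was not tested, since it uses the contrast that chose the genes.

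Across stages, averaged over both ages, all 6 genes rose from baseline to 0dpr, where 17.1% of all genes were called higher. The log2 fold changes were 3.72 ± 0.71 for Cidea (adjusted p = 0.000127), 4.81 ± 1.09 for Ucp1 (0.000859), 3.97 ± 0.94 for Elovl3 (0.00134), 0.84 ± 0.19 for Dio2 (0.00103), 0.81 ± 0.22 for Ppargc1a (0.00445) and 0.85 ± 0.26 for Prdm16 (0.0122), by edgeR's quasi-likelihood test. Each was called in all 16 fits that left out 1 library, but Prdm16 was not called once replicate number was added as a block (0.76, adjusted p = 0.0501). Mature 0dpr replicate 1 carried part of the size, as the values without it were 2.95 for Cidea, 3.66 for Ucp1 and 2.60 for Elovl3. Without mature baseline replicate 2 they were 4.10, 5.55 and 4.70. The Elovl3 value depends on the prior count, since the immature baseline libraries held at most 1 read.

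Many fat genes and muscle genes rose with them. Of the 20 brown fat effectors, 15 rose and 0 fell, with a median of 0.79 against -0.01 over all genes. Slc27a2 rose by 4.56 ± 0.89 (adjusted p = 0.000187), from 0 to 1.84 CPM at baseline to 0.370 to 119 CPM at 0dpr, and by 2.86 without immature 0dpr replicate 1, its highest library. Of 21 regulators and signals measured, 9 rose and 2 fell, among them the transcriptional regulators Ebf2 (0.90 ± 0.15), Tbx15 (0.85 ± 0.18) and Esrrg (1.06 ± 0.24). Of 15 fatty acid synthesis and elongation genes, 12 rose and 1 fell (median 1.21), with Scd2, a fatty acid desaturase, at 0.93 ± 0.12 and Acly, ATP citrate lyase, at 1.15 ± 0.17.

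Of 16 lipid droplet genes 12 rose and 0 fell (median 0.75), among them Fitm2 (0.96 ± 0.13) and the lipase inhibitor G0s2 (1.26 ± 0.25). Of 8 thyroid hormone genes 5 rose and 0 fell, with both receptors Thrb (0.82 ± 0.13) and Thra (0.50 ± 0.11) higher. Of the 6 beige fat markers 1 rose and 2 fell, Tmem26 (-0.93 ± 0.22) and Tnfrsf9 (-1.18 ± 0.33). Of the adipocyte markers 11 of 12 rose (median 0.92), and of the skeletal muscle markers 19 of 20 (median 0.92). Summed adipocyte markers moved from 3246 to 6654 CPM at baseline to 7535 to 15504 CPM at 0dpr, and muscle markers from 48862 to 116299 CPM to 126439 to 263328 CPM.

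With the adipocyte mean as a covariate, Dio2 alone of the 6 was still called at 0dpr against baseline (0.98), and Cidea, Ucp1 and Elovl3 were 1.12, 0.50 and 1.41. With the muscle mean as a covariate, Cidea, Ucp1, Elovl3 and Dio2 were called and Ppargc1a (0.34) and Prdm16 (0.77) were not. All genes called numbered 2913 with the adipocyte and 1886 with the muscle mean, against 7002 without a covariate. The adipocyte mean was 6.51 to 7.84 at baseline and 7.68 to 8.48 at 0dpr, so that it can hardly be told apart from stage here. The muscle mean was 10.6 to 11.9 and 11.6 to 12.8, which overlapped in part. Of the list genes named above, Tbx15 (0.23), Esrrg (0.53), Thra, Tmem26 and Tnfrsf9 were not called with the muscle mean, and Slc27a2 (2.30), G0s2, Esrrg, Thra and Tnfrsf9 were not called with the adipocyte mean.

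Averaged over both ages, all 5 genes that could be tested fell from 0 to 2dpr. At this step 30.8% of all genes were called lower and 27.9% higher. Ppargc1a fell most precisely, from 24.7 to 48.6 CPM to 2.48 to 7.67 CPM with no overlap (log2 fold change -3.07 ± 0.24, adjusted p = 3.52e-13 by edgeR). Ucp1 changed by -4.81 ± 1.14 (adjusted p = 0.000495), Elovl3 by -2.19 ± 0.78 (0.0162), Dio2 by -0.89 ± 0.19 (0.000167) and Prdm16 by -0.70 ± 0.26 (0.0218). Without mature 0dpr replicate 1 Elovl3 (-0.82) and Prdm16 (-0.52) were no longer called, and without immature 0dpr replicate 1 Elovl3 (-1.75) was not. With the replicate block Elovl3 (-1.45, adjusted p = 0.142) was not called, and with the compared libraries alone Prdm16 (-0.70, adjusted p = 0.0553) was not. Cidea, which is described without a test here, fell in mature mice from 4.17 to 199 CPM to 0 to 0.833 CPM, with no overlap. Its immature ranges of 1.85 to 65.6 CPM and 1.99 to 40.4 CPM overlapped. The mean log2 CPM of Elovl3 rose from 0.14 to 1.00 in immature mice and fell from 1.58 to -1.32 in mature mice. That of Ucp1 went from 4.42 to 4.06 in immature and from 6.05 to -0.70 in mature mice. For Dio2, Ppargc1a and Prdm16 it fell in both ages. These courses by age were not tested.

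The lists fell with them. Of 20 brown fat effectors 18 fell and 1 rose (median -2.04), with the muscle and brown fat cytochrome oxidase subunits Cox7a1 (-3.33 ± 0.19) and Cox8b (-3.22 ± 0.25) lowest in p. Of 21 regulators 14 fell and 1 rose, among them Tbx15 (-2.11 ± 0.19) and Ppara (-3.24 ± 0.33), a driver of fatty acid oxidation. Of 16 lipid droplet genes 11 fell and 3 rose: Fitm2 fell by 1.97 on the log2 scale while Plin2, the droplet coat protein of many cell types, rose by 2.78. Of 15 fatty acid genes 12 fell, such as Acacb (-2.92 ± 0.24), and Elovl1 rose (1.41 ± 0.09). Of 8 thyroid genes 6 fell and 2 rose, with Thrb at -2.58 ± 0.14 and Thra at -1.43 ± 0.11.

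All 12 adipocyte markers (median -2.28) and all 20 skeletal muscle markers (median -3.05) fell over the same step, and of the 6 beige markers Tnfrsf9 (1.89 ± 0.33) and Tmem26 (0.56 ± 0.22) rose and Tbx1 (-2.11 ± 0.46) fell. The Tmem26 call was lost with RLE factors (0.48), with the compared libraries alone, and without immature (0.37) or mature (0.48) 0dpr replicate 3. With the muscle mean as a covariate 0 of 5 members were called, where Ppargc1a was -1.34 and Ucp1 -9.02, and Cox8b, Tbx15, Ppara, Fitm2, Acacb, Elovl1, Thra, Tnfrsf9, Tmem26 and Tbx1 were not called either. In that fit 1413 of all genes were called, against 12433 without the covariate. The muscle mean was 11.6 to 12.8 at 0dpr and 8.56 to 9.67 at 2dpr, with no overlap, so that it cannot be told apart from stage here. With the adipocyte mean Dio2 (-1.21) and Ppargc1a (-2.83) were called, and Ucp1 (3.21), Elovl3 (2.83) and Prdm16 (0.33) changed sign and were not called, nor were Tnfrsf9 (1.45), Tmem26 (0.29) and Tbx1 (-1.93). That fit called 4909 of all genes. The adipocyte mean also had no overlap, at 7.68 to 8.48 at 0dpr and 5.33 to 6.37 at 2dpr.

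From 2 to 5dpr Dio2 (0.73 ± 0.20, adjusted p = 0.00644) and Ppargc1a (0.90 ± 0.25, adjusted p = 0.00644) rose by edgeR's test, where 11.5% of all genes were called higher. Ucp1 (1.80 ± 1.18), Elovl3 (0.05 ± 0.75) and Prdm16 (-0.46 ± 0.28) were not called on this average of both ages. The mean log2 CPM of Elovl3 fell from 1.00 to -0.92 in immature mice and rose from -1.32 to 0.34 in mature mice. That of Ucp1 fell from 4.06 to 1.43 in immature mice and rose from -0.70 to 3.00 in mature mice. These opposite courses use the 2dpr libraries and were not tested. With the muscle mean as a covariate Dio2 was still called and Ppargc1a (0.41) was not, beside 15 of 20 skeletal muscle markers that rose.

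From 5 to 14dpr Ucp1 was the only member called, with -4.47 ± 1.39 (adjusted p = 0.0307), where 6.22% of all genes were called lower. Its level was 49.0, 4.26, 0.466 and 0.174 CPM in immature and 91.8, 3.10 and 1.51 CPM in mature mice at 5dpr, and at most 0.609 and 5.35 CPM at 14dpr. The call was kept in 8 of 15 fits that left out a library, and the value was -2.85 without immature 5dpr replicate 2, -2.60 without mature 5dpr replicate 1 and -4.53, -4.35, -4.26, -4.30 and -4.36 without immature 14dpr replicates 2, 3 and 4 and mature 14dpr replicates 1 and 4. Cidea was -2.38 ± 0.88 (adjusted p = 0.0754) and Elovl3 -2.87 ± 1.15 (adjusted p = 0.105) by edgeR's test. Both were called by DESeq2 and by edgeR with the compared libraries only, and Elovl3 also without mature 14dpr replicate 3 (-3.82). The Elovl3 values rest on the floor. At 14dpr 4 of 4 immature and 3 of 4 mature libraries held at most 3 reads of it, as did 3 of 4 immature libraries at 5dpr. Of the adipocyte markers 5 of 12 fell and 0 rose. With the adipocyte mean as a covariate Ucp1 (-1.43, adjusted p = 0.690), Cidea (-0.60) and Elovl3 (-1.18) were not called, and with the replicate block Ucp1 was not (-4.18, adjusted p = 0.0527).

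At 14dpr compared with baseline, Cidea (-2.24 ± 0.86, adjusted p = 0.0311) and Ppargc1a (-1.78 ± 0.23, adjusted p = 8.63e-08) were lower and Dio2 (0.59 ± 0.19, adjusted p = 0.0120) was higher by edgeR's test, where 23.5% and 22.4% of all genes were called lower and higher. The Cidea call was lost without mature baseline replicate 2 (-1.86), immature 14dpr replicate 3 (-2.19) or mature 14dpr replicate 1 (-2.09). Ucp1 (-2.67 ± 1.54, adjusted p = 0.160) was called only by DESeq2 and with the compared libraries only. Prdm16 was -0.03 ± 0.27.

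Of the effectors 13 of 20 were lower at 14dpr than at baseline, such as Cox7a1 (-1.89 ± 0.17) and the fatty acid carrier Fabp3 (-2.18 ± 0.22), and 10 of 21 regulators were lower and 3 higher, with the brown fat hormone Nrg4 at -2.96 ± 0.33 and Ppara at -2.86 ± 0.33. Among lipid droplet genes 9 fell, among them Plin4 (-2.31 ± 0.22) and Plin5 (-2.66 ± 0.35), and 3 rose, with Plin2 at 1.81 ± 0.20. All 12 adipocyte and all 20 skeletal muscle markers were lower. With the muscle mean as a covariate 0 of 6 members were called, with Ppargc1a at -0.77 (adjusted p = 0.214), Cidea at -2.56 (0.249) and Dio2 at 0.47 (0.434). With the adipocyte mean as a covariate, Ppargc1a was the only member called, and Cidea (1.28) and Ucp1 (2.498) changed sign without a call. All genes called numbered 4166 with the muscle and 4895 with the adipocyte mean, against 9737 without a covariate. The muscle mean was 9.06 to 10.2 at 14dpr and 10.6 to 11.9 at baseline, and the adipocyte mean 4.48 to 6.10 and 6.51 to 7.84. Neither overlapped, so that they cannot be told apart from stage here.

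The members lie on 6 chromosomes (GRCm38, GENCODE M21): Cidea at chr18:67343604-67367785, Ucp1 at chr8:83290352-83298452, Elovl3 at chr19:46131897-46135694, Dio2 at chr12:90724552-90738438, Ppargc1a at chr5:51454250-51567726 and Prdm16 at chr4:154316125-154636873. Apart from Ucp1, each overlaps another annotated gene, such as B430212C06Rik on the opposite strand of Cidea and Pitx3 on that of Elovl3. The libraries kept strand, but whether the counting used it is not given in the sources used here, so that reads of overlapping genes may be shared.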

How the data were processed

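Total RNA of rib tissue was sequenced as stranded, paired-end RNAseq libraries. Per the submitters' notes, STAR 2.5.2a was used with the GRCm38 genome, and the authors deposited gene counts. The deposited counts are raw, in a table of 48733 genes and a filtered table of 21204, whose filter rule is not given in the sources used here. The deposited normalized signal is CPM with TMM factors and matched edgeR's within a relative difference of 4.99e-15. There were 24 rows of the full table that named no gene and these held at most 0.00227% of a library, and 1 such row was dropped from the filtered table. Total counts of 6075274 to 21546794 per library limit precision for genes with few reads, and a gene with at most 3 reads per library is treated as at the floor.

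In R 4.3.3, counts of 21203 genes in 39 libraries were normalized by TMM, and edgeR 4.0.16 fitted them (quasi-likelihood, 1 coefficient per group, 29 residual degrees of freedom), with Benjamini-Hochberg adjustment over all genes and a threshold of 0.05. SE is the log2 fold change divided by the root of F. Stage comparisons were averaged over both ages. log2 CPM used a prior count of 2. The fit was tested on simulated data with 200 genes changed in immature mice at 0dpr. Between the ages at that stage it called 49% of 2-fold and 86% of 4-fold changes. Of its 153 calls, 18 were of unchanged genes. Single members were also compared between the ages by exact two-sided permutation tests. Correlations are descriptions.

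The members and the gene lists were chosen with earlier results of these data known. Named genes are the 6 members, of each pathway or marker list at most the 4 called genes with the smallest adjusted p, and for each member the 5 genes most correlated with it. Otop1 at 2dpr was given because it is one of these. Promoters are from RefSeq (GRCm38.p6), matched by symbol for 4 of 6 members, and 3 are printed.

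Replicate numbers in the labels were checked for pairing. Same-numbered libraries deviated together at 0dpr between the ages (correlations 0.109 to 0.207 over 4 pairs) but not over all 154 pairs (mean 0.00847). Replicates are separate samples in the labels, and the study's methods call its samples individual biological ones, though the labels tie no library to an animal. No 2 libraries of a group agreed within sampling noise. Sequencing runs are not given per library. Alternatives were RLE size factors, DESeq2 1.42.0, edgeR's filter, no filter, a fit to the compared groups alone, a block for replicate number, skeletal muscle or adipocyte scores as covariates, a threshold of 0.01, a prior count of 0.5 and each library left out.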

Additional observations from a re-analysis of the deposited data

Results flagged for a closer look

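Within groups of 4 libraries, 54 sets of values of the 6 genes were searched for a highest or lowest library whose gap to its neighbour took up most of the group's range (Dixon's 95% limit). There were 3 such libraries, where chance alone marks about 1 in 20 sets. Ucp1 had 0 CPM in mature 2dpr replicate 3, below 0.693 to 0.743 CPM in the other libraries of that group. Prdm16 was 7.53 CPM in immature baseline replicate 3, above 5.26 to 5.55 CPM in the others. Elovl3 was 0.101 CPM, from 1 read, in immature 14dpr replicate 2, where the others had 0 reads.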

How the results depend on the processing

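Under RLE size factors and both gene filters, the number of the 6 genes called equalled the reported number in each of the 11 comparisons. Apart from left-out libraries, 86 alternative counts stayed within 1.5 times the reported one and 13 did not. With the adipocyte covariate the count moved to 1 at 0dpr against baseline, 2 at 2dpr against 0dpr, 0 at 14dpr against 5dpr and 1 at 14dpr against baseline. With the muscle covariate it moved to 0 at 2dpr against 0dpr, 1 at 5dpr against 2dpr and 0 at 14dpr against baseline. A threshold of 0.01 gave 3, 0 and 1 at 2dpr against 0dpr, 14dpr against 5dpr and 14dpr against baseline. At 14dpr against 5dpr, DESeq2 and the compared libraries alone gave 3 and the replicate block gave 0. The cause was not tested.

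Signs changed in 10 values with all libraries kept. With the adipocyte covariate these were Ucp1 (3.21), Elovl3 (2.83) and Prdm16 (0.33) at 2dpr against 0dpr, Cidea (1.28) and Ucp1 (2.498) at 14dpr against baseline, and Cidea (0.55) and Ucp1 (2.32) between the ages at 5dpr. With the replicate block Ucp1 between the ages at 5dpr was 0.020, and with the muscle covariate Tbx15 (0.092) and Tmem26 (-0.51) at 2dpr against 0dpr changed sign.

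With each library left out, called genes numbered 6 throughout at 0dpr against baseline, 3 to 5 at 2dpr against 0dpr, 2 at 5dpr against 2dpr, 0 to 2 at 14dpr against 5dpr, 2 to 3 at 14dpr against baseline, 0 to 1 between the ages at 0dpr and 0 at the other tested stages and in both interactions. Between the ages Cidea ran from -0.0068 to 0.98 at baseline, from -1.56 to 0.65 at 0dpr and from -2.62 to 0.23 at 5dpr, and Ucp1 from -2.18 to 1.12 at 0dpr and from -4.60 to 2.38 at 5dpr. At 2dpr Ppargc1a ran from -0.060 to 0.53 and Prdm16 from -0.10 to 0.43.

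With the replicate block, Prdm16 at 0dpr against baseline (0.76, adjusted p = 0.0501 by edgeR), Elovl3 at 2dpr against 0dpr (-1.45, adjusted p = 0.142) and Ucp1 at 14dpr against 5dpr (-4.18, adjusted p = 0.0527) were no longer called, and no call between the ages changed. Cidea at 2dpr was 5.35 with the block.

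Counts over all genes moved by more than 1.5 times as follows. With the muscle covariate 7002 became 1886 at 0dpr against baseline, 12433 became 1413 at 2dpr against 0dpr, 4540 became 2470 at 5dpr against 2dpr and 9737 became 4166 at 14dpr against baseline. With the adipocyte covariate the first, second and last became 2913, 4909 and 4895. With the compared libraries alone 2422 became 4842 at 14dpr against 5dpr. Between the ages, 124, 154, 0 and 2 at baseline, 0dpr, 5dpr and 14dpr became 338, 345, 33 and 32 by DESeq2 and 475, 0, 6 and 5 with the compared libraries alone. The muscle covariate gave 63 at baseline and 1 at 5dpr, and at 14dpr the adipocyte covariate gave 4 and all genes with a count 5. The interactions, 3 at 0dpr and 10 at 14dpr, became 19 and 54 by DESeq2, 0 and 178 with the compared libraries alone, and at 14dpr 6 with RLE factors or the muscle covariate. Few reads limit Elovl3 in most groups and Cidea and Ucp1 at 14dpr and in mature mice at 2dpr.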

Other observations

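Ranked by deviations from group means in place of levels, the genes that were no members and were most like Cidea over 39 libraries were Acadl (r = 0.83), an enzyme of fatty acid oxidation, Slc25a48 (0.80), a mitochondrial carrier, Otop1 (0.78), 9130214F15Rik (0.78) and Hsdl2 (0.75). Otop1 stood among the first 5 by both rankings. For Ucp1, Slc27a2 (0.83), Otop1 (0.77) and 9130214F15Rik (0.76) led in both. For Elovl3, Letmd1 (0.79) and Kcnk3 (0.78) were in both, behind Acot11 (0.81) and Agpat2 (0.80). For Ppargc1a, Hk2, a hexokinase of muscle, led (0.79), and Pde4d (0.75), Ckmt2 (0.73) and Perm1 (0.70) were in both. For Dio2 the first 5 shared no gene, and Nbeal1 and Pcdhga12 led (both 0.68). Libraries of a group share age, stage and dissection, and no test was made.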
